A study of Mus musculus with 16 samples.

Results

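The genes described here encode the autophagy machinery, and they were read in type 1 conventional dendritic cells (cDC1) from mice carrying tumours. The set holds 37 named genes, from the ULK1 kinase complex that starts autophagy to the receptors that bring cargo to it. For each gene the brightest probe set with a single gene symbol was taken. This gave 36 of the 37 genes among 19938 genes measured in all, and Optn was not analysed here. All mice were C57BL/6 animals injected in the flank with a regressor tumour, a line that the immune system of a normal host rejects. They were heterozygous (Het) or knockout (KO) for WDFY4, a large BEACH-domain protein known for its role in cross-presentation by cDC1. On day 6 the inguinal lymph node of the draining or of the non-draining flank was digested with collagenase B and DNase I, and cDC1 were sorted. Total RNA of 4 groups (Het draining, KO draining, Het non-draining and KO non-draining) was measured on Affymetrix arrays, 4 per group and 16 in all. The animals' age, the allele's deleted part and the gate of the sort were not given in the sources used here. The control in every genotype comparison is the heterozygote, and every mouse carried a tumour. Whether each array stands for its own mouse is not stated, and each p-value therefore describes only how far these samples scatter, which may be technical.

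Autophagy wraps part of the cytoplasm in a membrane sac and delivers it to the lysosome. The ULK1 kinase complex and a class III phosphoinositide 3-kinase start the sac, PI3P-binding proteins and lipid carriers enlarge it, and a ubiquitin-like conjugation system attaches LC3 and GABARAP proteins to its membrane, where receptors dock their cargo. In dendritic cells several of these proteins also act in antigen handling, and some serve LC3-associated phagocytosis, in which LC3 is placed on phagosomes. Transcription of many of the genes is known to be driven by TFEB and its relatives, which bind the E-box CACGTG within a longer element.

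That E-box was looked for in the RefSeq promoters of the members, in windows from 250 bases before to 50 bases after each start site (build GRCm38.p6). CACGTG is its own reverse complement, so a single search covers both strands. It was present in 4 of 34 promoters of 30 members, which is 11.8%, against 2349 of 32851 promoters of all genes, or 7.15%. The longer form TCACGTGA, which contains the E-box, was present in 1 member promoter and in 0.974% of all promoters. Whether the members hold the motif more often than other genes was not tested. The matches are shown so that the motif can be set beside the intensities and differences of the 4 members. The capitals mark the E-box, and 10 bases stand on each side.
Atg7: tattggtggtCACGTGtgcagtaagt
Atg5: gagcgcttgcCACGTGgtcttggtga
Atg14: aacaaaatccCACGTGactggccctg
Atg3, first match: ctccttttgtCACGTGtcctgggaga
Atg3, second match: agagtcgagtCACGTGaggccttagg
The Atg7 stretch is chr6:114670954-114670979 on the + strand, and the Atg5 stretch is chr10:44268315-44268340 on the + strand. The Atg7 gene runs from 114643127 to 114860604, so its stretch belongs to a start site inside the gene and not to the first one. The Atg5 gene runs from 44268322 to 44364299, so its E-box also lies inside the gene, before a start site that is not the first one. The Atg14 stretch is chr14:47568420-47568445 on the - strand. The Atg3 stretches are chr16:45158725-45158750 and chr16:45158748-45158773 on the + strand, and the latter holds TCACGTGA. The E-box began 1 base before the start site in Atg14, 14 bases before the internal start site in Atg5, and 94 and 71 before the start site in Atg3. In Atg7 it began 132 bases before the internal start site. A match describes letters in the window and does not show that a factor binds there.

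Before the comparisons, the arrays were checked against their labels. The cDC1 markers Xcr1 (1240 to 2495), Clec9a (1031 to 1777) and Irf8 (2703 to 4082) were bright in all 16 arrays, on the linear intensity scale of the deposited values, whose array medians lay between 38.6 and 40.8. The probe set of Wdfy4 read 2462.5 to 3450.0 in the Het draining, 1786 to 2785 in the KO draining, 2278 to 3332 in the Het non-draining and 1923 to 3165 in the KO non-draining arrays. These ranges overlap between genotypes, and since the deleted part of the gene is not known the probe set checks no label. Of the 15 cDC1 markers listed, Wdfy4 among them, 5 had a higher and 10 a lower mean in KO at the draining node. At the non-draining node 12 were higher and 3 lower. Their median log2 differences were -0.03 and 0.19, and none passed the adjusted test. Of other cells, summed T cell marker intensity ran from 1411 to 2412 in Het draining, 1607 to 2812 in KO draining, 1456 to 2711 in Het non-draining and 998 to 2568 in KO non-draining arrays. None of the 11 measured T cell markers passed the test, but all 11 had a higher mean in KO at the draining node and a lower one at the non-draining node, with median log2 differences of 0.26 and -0.37. At an unadjusted p below 0.05, none of them was past the threshold at the draining node. At the non-draining node 2 of them were lower in KO, where 1.18% of all genes were lower. Of 11 measured B cell markers, 9 had a higher mean in KO at the draining node (median 0.13) and 10 at the non-draining node (median 0.33). Over both nodes 10 of 11 were higher, by a median of 0.32. Of these, 5 were past an unadjusted p of 0.05, where 1.75% of all genes were higher, and none was past the adjusted threshold. Summed B cell marker intensity ran from 655 to 1126 in Het draining, 801 to 1028 in KO draining, 696 to 1146 in Het non-draining and 868 to 1270.0 in KO non-draining arrays. The 6 measured migratory dendritic cell markers summed to 11172 to 16053 in Het draining and 8431 to 16625 in KO draining arrays. In non-draining arrays they summed to 11356 to 15906 in Het and 11509 to 14980 in KO. The 18 immediate early genes summed to 20235 to 26117 in Het draining and 24867 to 29359 in KO draining arrays, and to 21586 to 25522 in Het non-draining and 25217 to 31047 in KO non-draining arrays. Of the 18, 17 had a higher mean in KO at the draining and 18 at the non-draining node, and none passed the adjusted test. At an unadjusted p below 0.05, 9 were higher at the draining node, 8 at the non-draining node and 14 for the mean of both, where 1.69%, 1.3% and 1.75% of all genes were higher. The part of these transcripts and of T cell, B cell and migratory dendritic cell transcripts in the differences of autophagy genes was not tested. In bulk samples such as these, fewer cells of a type and less RNA per cell cannot be told apart. KO draining array 2 stood apart from the rest, and Het draining array 1 was the next lowest, close to the others. Their mean correlations with the other arrays across genes were 0.976 and 0.984, against 0.986 to 0.990 for the other 14 arrays.

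No autophagy gene differed between the genotypes or the nodes after adjustment. limma's test with Benjamini-Hochberg adjustment over all 19938 genes called 0 of the 36 members in each of 7 comparisons: KO against Het and draining against non-draining in each stratum, both means, and their interaction. It also called 0% of all genes in each of them. The smallest adjusted p of any member was 0.998, for the node difference averaged over genotypes. At an unadjusted p below 0.05, 675 genes in all were past the threshold between KO and Het at the draining node, 494 at the non-draining node, 655 between nodes in Het and 421 between nodes in KO. The interaction gave 463 such genes, the mean genotype difference 696 and the mean node difference 610. Without any true difference this threshold lets through a share of about 0.05 of all genes, and all 7 counts were below that. The counts therefore do not show that these genes changed. No member was among the genes of the interaction, which held 0.993% of all genes on the higher and 1.33% on the lower side. For the genotype mean, Atg9a was higher and Wipi2 and Atg4a were lower, where 1.75% of all genes were on each side. For the node mean, Wipi1 and Pik3c3 were higher, where 1.76% of all genes were, and no member was lower, where 1.3% were.

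The members' differences were small and their directions were mixed. At the draining node 17 members were higher in KO and 19 lower, with a median log2 difference of -0.01 and a range from -0.28 to 0.37. At the non-draining node 16 were higher and 20 lower, with a median of -0.03 and a range from -0.58 to 0.20. The median over all genes was -0.003 and 0.005. Between nodes, 15 were higher and 21 lower in draining Het cells (median -0.07, all genes 0.01), and 18 and 18 in KO cells (median -0.00).

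The confidence intervals show how large a difference the scatter between these arrays leaves room for. That scatter may be technical, so the intervals may leave out the spread between mice. Each interval is for a single gene and is not adjusted for the 36 members. At the draining node the 95% interval of the genotype difference lay within 2-fold for all 36 members and within 1.5-fold for 30 of them. At the non-draining node these counts were 35 and 28, the exception to the former being Atg14, whose interval reached -1.11 on the log2 scale. Between nodes the intervals lay within 2-fold for all 36 members in each genotype, and within 1.5-fold for 29 in Het and 31 in KO. The interaction was measured less closely, with a median standard error of 0.22 against 0.15 for a single comparison, and 13 members had an interval within 1.5-fold.

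**Figure D1:**
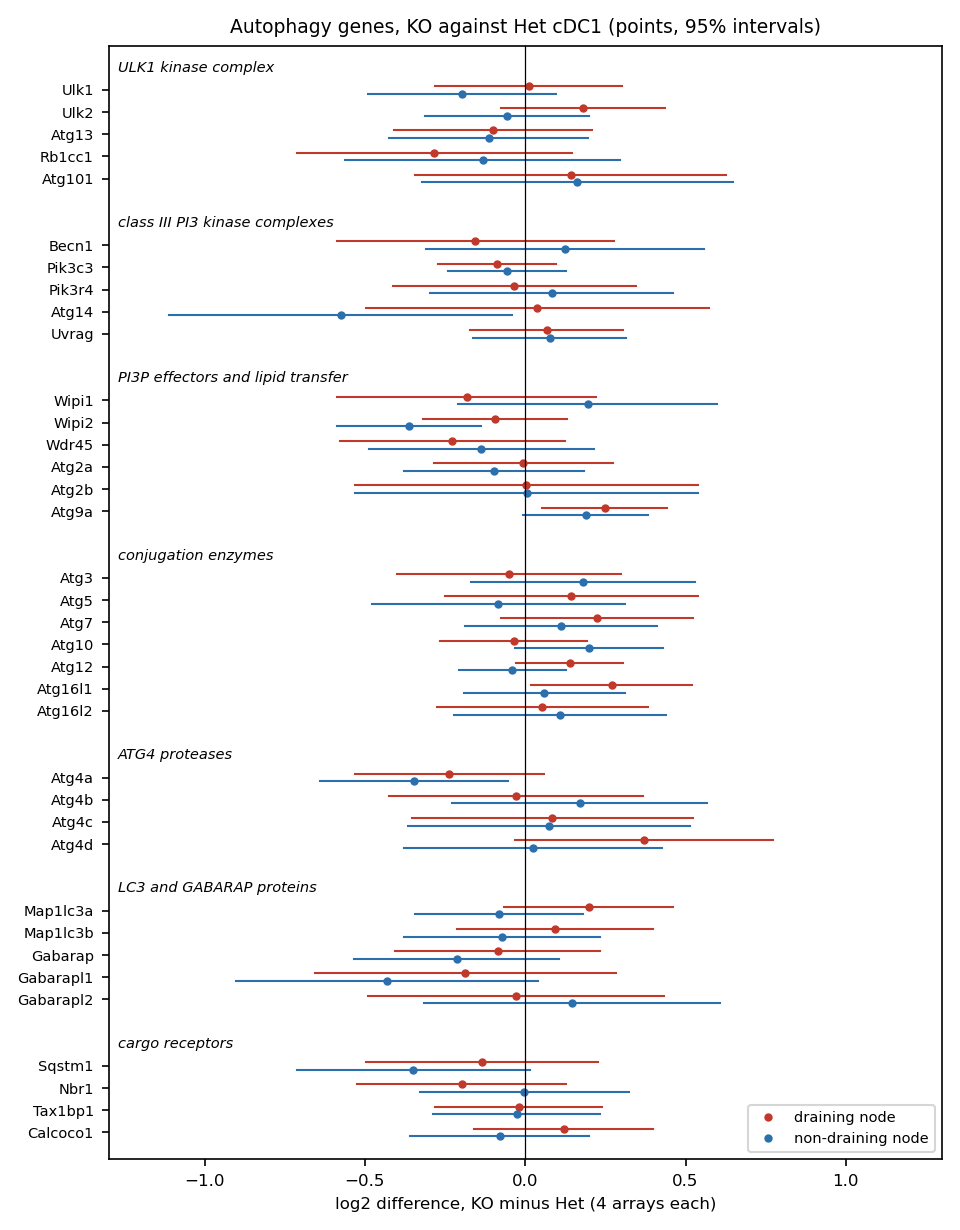
Log2 difference of KO minus Het cDC1 for each of the 36 measured autophagy genes, in the draining node (red) and the non-draining node (blue), with 95% confidence intervals from limma (4 arrays per group), grouped by role. Points lie on both sides of 0 in every role. The interval of Wipi2 in the non-draining node lies below 0 while that of Atg9a in the draining node lies above it.

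The ULK1 complex senses nutrient signals and phosphorylates the machinery. Of its 5 members, 3 were higher and 2 lower in KO at the draining node, and 1 was higher and 4 lower at the non-draining node. The kinase genes Ulk1 and Ulk2 had median intensities of 120 (range 90.6 to 157) and 150.4 (range 132 to 199) over the 16 arrays, and the scaffold partner Atg13 373 (245 to 468). The complex's other subunits, Rb1cc1 (FIP200) at 99.2 and Atg101 at 169, ran from 49.2 to 125 and from 91.0 to 216. Intensities of different probe sets do not rank the genes against each other. Atg101 stabilises Atg13, and its intensity read 91.0, 167, 192 and 105 in the Het draining arrays, 125, 105, 201 and 173 in the KO draining arrays, 139, 158, 172 and 175 in the Het non-draining arrays and 172, 143, 196 and 216 in the KO non-draining arrays. The nodes overlapped in both genotypes. Averaged over genotypes it was -0.29 ± 0.16 on the log2 scale in draining against non-draining nodes (SE, exact permutation p = 0.124, limma adjusted p = 0.998). Without the 2 arrays of lowest correlation it was -0.12.

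The class III PI3-kinase complexes make the lipid PI3P on the nascent membrane. Pik3c3 (VPS34), the catalytic subunit, read 505, 409, 433 and 453 in Het draining arrays, 435, 386, 423 and 446 in KO draining arrays, 388, 387, 399 and 415 in Het non-draining arrays and 371, 429.5, 357 and 374 in KO non-draining arrays. The draining arrays were mostly the higher ones, but the ranges of the nodes overlapped in both genotypes. The node difference was 0.17 ± 0.09 on the log2 scale in Het (exact permutation p = 0.0571) and 0.14 ± 0.09 in KO (exact permutation p = 0.0857). Averaged over genotypes it was 0.16 ± 0.06 (exact permutation p within genotypes 0.00694, limma adjusted p = 0.998), and it kept its direction at 0.15 without the arrays of lowest correlation. Becn1, the regulatory scaffold, ranged from 99.1 to 200 with a median of 159, Pik3r4 (VPS15), the kinase-like anchor, from 63.7 to 123, and Uvrag, which directs the complex to endosomes, from 636 to 934.

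Atg14, the subunit that brings the kinase to the site of autophagosome formation and whose promoter holds an E-box, read 33.5, 91.5, 55.5 and 52.8 in Het draining arrays, 68.7, 53.4, 41.7 and 65.4 in KO draining arrays, 56.2, 51.8, 63.3 and 91.9 in Het non-draining arrays and 40.2, 32.9, 48.3 and 52.1 in KO non-draining arrays. The KO non-draining arrays were the low ones, and their highest value lay just inside the Het range. The difference at that node was -0.58 ± 0.25 on the log2 scale (95% interval -1.11 to -0.04, exact permutation p = 0.0571, limma adjusted p = 1.00), with -0.56 within the arrays numbered 1 and 2 and -0.60 within those numbered 3 and 4. Atg14 was picked for its small p in these same arrays, so the similar values by array numbers are no separate check. At the draining node the genotype difference was 0.04 ± 0.25. The interaction was 0.61 ± 0.36 (limma adjusted p = 1.00), so the genotype difference was not shown to depend on the node.

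PI3P effectors and lipid carriers extend the membrane. Wipi2, the PI3P reader that recruits the ATG16L1 complex, read 138, 126, 142 and 143 in Het non-draining arrays and 118, 84.9, 115 and 110.1 in KO non-draining arrays. The groups did not overlap, and the KO arrays were the low ones. Wipi2 was the only member of the 36 with KO wholly below Het at this node, as were 1.19% of all genes, and no member lay wholly above, as 1.2% of all genes did. The difference was -0.36 ± 0.11 on the log2 scale (95% interval -0.59 to -0.14, exact permutation p = 0.0286, the smallest that 4 against 4 arrays allow, limma adjusted p = 1.00). Its size was similar in the array numbers 1 and 2 (-0.39) and 3 and 4 (-0.34). These are the same arrays in which Wipi2 was picked, so a shared direction was fixed and the similar size is no separate check. Any gene whose groups do not overlap also gives this exact p, which therefore adds nothing to the non-overlap. At the draining node Wipi2 read 110.0, 133, 129.8 and 108 in Het and 108, 112, 117 and 109.6 in KO arrays. There the groups overlapped and the difference was -0.10 ± 0.11. The mean over both nodes was -0.23 ± 0.07 (exact permutation p within nodes 0.00776).

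Atg9a, the lipid scramblase whose vesicles seed the membrane, read 92.8, 100.3, 99.5 and 92.3 in Het draining arrays and 108, 121, 108 and 121 in KO draining arrays. The lowest KO value exceeded the highest Het value. Atg9a was the only member with KO wholly above Het at this node, as were 0.838% of all genes, and no member lay wholly below, as 0.747% of all genes did. The difference was 0.25 ± 0.09 on the log2 scale (95% interval 0.05 to 0.44, exact permutation p = 0.0286, limma adjusted p = 1.00), and 0.25 within each of the 2 sets of array numbers. As for Wipi2, the non-overlap by which Atg9a was picked fixes this exact p and the direction within each set of array numbers. Neither is a separate check. At the non-draining node Atg9a read 112, 117, 91.3 and 99.6 in Het and 118, 133, 111 and 115 in KO arrays. Here the groups overlapped, with a difference of 0.19 ± 0.09 (exact permutation p = 0.143). The mean over both nodes was 0.22 ± 0.07, with an exact permutation p within nodes of 0.00204 against the smallest possible 0.000408, and a limma adjusted p of 1.00.

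Wipi1, a PI3P reader of the same family, read 86.0, 52.7, 46.2 and 44.6 in Het draining arrays and 35.4, 33.5, 40.2 and 39.8 in Het non-draining arrays. All draining values lay above all non-draining ones in Het. Wipi1 was the only member with this pattern, which 1.4% of all genes showed, and no member had the opposite one, which 0.998% showed. The difference was 0.56 ± 0.19 on the log2 scale (exact permutation p = 0.0286, limma adjusted p = 1.00), and its size rested largely on the first draining array. The difference was 0.95 between the arrays numbered 1 and 2, 0.18 between those numbered 3 and 4, and 0.35 without the first draining array. Wipi1 was also the only member past an unadjusted p of 0.05 between nodes in Het, on the higher side with 1.93% of all genes, and no member was on the lower side with 1.35%. In KO cells Wipi1 read 39.5, 66.2, 41.6 and 51.1 in draining and 36.7, 38.2, 46.9 and 50.2 in non-draining arrays, which overlapped, and the difference was 0.18 ± 0.19. No member separated the nodes completely in KO, where 0.848% of all genes were wholly higher and 0.592% wholly lower in the draining node. The mean over genotypes was 0.37 ± 0.14 (exact permutation p within genotypes 0.02), or 0.20 without both arrays of lowest correlation. Among the other members of this role, the PI3P reader Wdr45 ranged from 98.2 to 170.3, and the lipid transfer proteins Atg2a from 137 to 212 and Atg2b from 78.6 to 198. Atg2b is 1 of 4 members with a further probe set, and its probe sets disagreed between nodes in Het, at 0.20 for the brighter and -0.04 for the other.

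**Figure D2:**
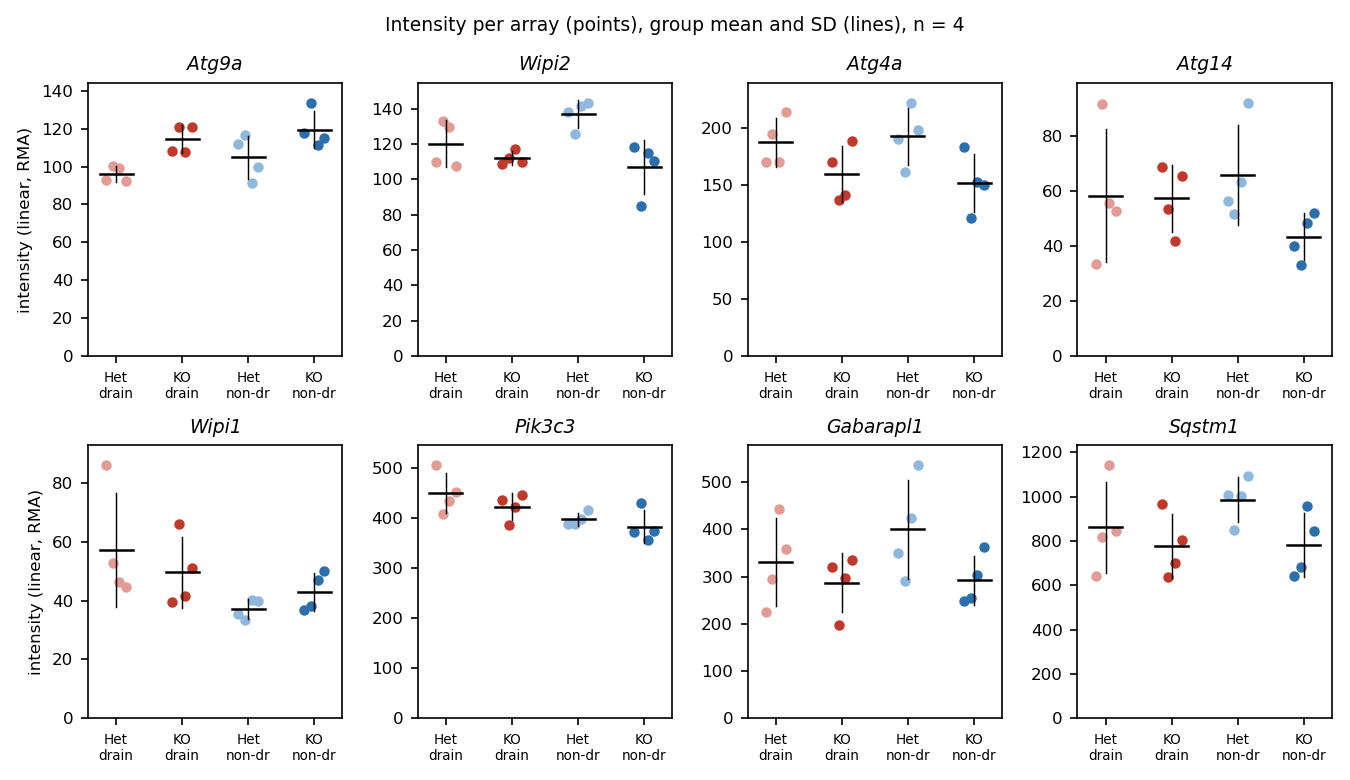
Intensity (linear scale, from 0) in each of the 16 arrays for Atg9a, Wipi2, Atg4a, Atg14, Wipi1, Pik3c3, Gabarapl1 and Sqstm1, with points for arrays, horizontal lines for group means and vertical lines for SD (n = 4). The 4 KO draining arrays lie above the 4 Het draining arrays for Atg9a, the 4 KO non-draining arrays lie below the 4 Het non-draining arrays for Wipi2, and a single Het draining array at 86.0 sets the spread of Wipi1.

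The conjugation enzymes join ATG12 to ATG5 and attach LC3 to lipid. Averaged over both nodes, all 7 were higher in KO, by a median log2 difference of 0.08, but none passed the test, and at each node 5 of 7 were higher. The E1-like enzyme Atg7, with an E-box before a start site inside the gene, was 0.22 ± 0.14 higher in KO at the draining and 0.11 ± 0.14 at the non-draining node. Atg3, the E2-like enzyme for LC3, was -0.05 ± 0.17 and 0.18 ± 0.17, and Atg5 was 0.14 ± 0.19 and -0.08 ± 0.19. These 3 genes are given for the E-box in their promoter windows, and every 95% interval of theirs included 0.

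Atg16l1 positions the conjugation complex on the membrane. It read 104, 104, 98.9 and 108 in Het draining arrays and 125, 145, 104 and 130.4 in KO draining arrays. Of the KO values 3 lay above all the Het values and 1 did not, and the difference was 0.27 ± 0.12 on the log2 scale (exact permutation p = 0.114, limma adjusted p = 1.00). At an unadjusted p below 0.05, Atg16l1 and Atg9a were the 2 members higher in KO at this node, where 1.69% of all genes were, and no member was lower, where 1.7% were. Atg12, the ubiquitin-like protein of the system, read 111, 103, 103 and 100.5 in Het draining, 111, 129, 105 and 115 in KO draining, 100.2, 103, 106 and 104 in Het non-draining and 95.3, 97.0, 102 and 107 in KO non-draining arrays. The KO draining arrays were mostly the high ones, with overlap in both genotypes. The node difference in KO was 0.19 ± 0.08 on the log2 scale (exact permutation p = 0.0571), and it was 0.31 for array numbers 1 and 2 against 0.07 for 3 and 4. Atg12 was the only member past an unadjusted p of 0.05 between nodes in KO, on the higher side with 1.14% of all genes, and no member was on the lower side with 0.973%. The interaction of Atg12 was 0.18 ± 0.11 (limma adjusted p = 1.00).

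ATG4 proteases trim LC3 before it is lipidated and remove it afterwards. Atg4a read 190.4, 161, 222 and 198 in Het non-draining arrays and 183, 121, 153 and 150.3 in KO non-draining arrays. The lowest Het value lay below the highest KO value, and the other KO values were below every Het value. The difference was -0.35 ± 0.14 on the log2 scale (exact permutation p = 0.0571). The mean over both nodes was -0.29 ± 0.10 (exact permutation p within nodes 0.0143, limma adjusted p = 1.00). Wipi2, Atg4a and Atg14 were the 3 members lower in KO at the non-draining node at an unadjusted p below 0.05, where 1.18% of all genes were lower, and no member was higher, where 1.3% were. The brightest Atg4a probe set lies among probe sets of chromosome 3 genes in its numbering, whereas Atg4a is on X. The other Atg4a probe set gave -0.31 at this node, close to the main value. Atg4d read 46.4, 59.3, 76.6 and 65.6 in Het draining arrays and 97.4, 65.7, 82.4 and 74.1 in KO draining arrays, which overlapped, for a difference of 0.37 ± 0.19 (exact permutation p = 0.114). The arrays numbered 1 and 2 gave 0.60, and those numbered 3 and 4 gave 0.14.

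LC3 and GABARAP proteins coat the membrane and dock cargo receptors. In Het cells all 5 members were lower in the draining node, by a median log2 difference of -0.18. In KO cells 4 were lower and 1 was higher (Map1lc3a, 0.13), with a median of -0.04. Averaged over genotypes all 5 were lower, by a median of -0.12, while none passed the test. KO draining array 2 was the lowest of its group for Map1lc3b, Gabarap, Gabarapl1 and Gabarapl2, but not for Map1lc3a. The KO and averaged values of those genes therefore rest partly on that array. Over the 16 arrays Gabarap read 2069 to 3866, Map1lc3b 644 to 1124 and Map1lc3a 69.4 to 106. Gabarapl2 was read by a probe set that lies among probe sets of chromosome 5 genes in its numbering, whereas the gene is on chromosome 8. Whether it reads the gene itself was not tested. Its other probe set, which lies among chromosome 8 genes, ranged from 59.8 to 125 and the brighter one from 460.4 to 1088. Their genotype differences had opposite signs: 0.08 for the other probe set against -0.03 for the brighter at the draining node, and -0.03 against 0.15 at the non-draining node. Gabarapl1 read 225, 296, 443 and 359 in Het draining, 320.0, 198, 297 and 334 in KO draining, 351, 290, 423 and 535 in Het non-draining and 249, 255, 302.5 and 362 in KO non-draining arrays. The groups overlapped at both nodes. Gabarapl1 was singled out after its values were seen. Its genotype difference was -0.19 ± 0.22 at the draining and -0.43 ± 0.22 at the non-draining node, where 3 of the 4 Het values lay above 3 of the KO values. Map1lc3a had an interaction of 0.28 ± 0.18, which was 0.06 from the arrays numbered 1 and 2 and 0.50 from the others.

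Cargo receptors bind ubiquitinated proteins or organelles and hand them to LC3. All 4 measured (Sqstm1, Nbr1, Tax1bp1 and Calcoco1) were lower in KO at the non-draining node, by a median of -0.05, and none passed the test. Sqstm1, the p62 receptor, read 642, 818, 1140.1 and 845 in Het draining, 968, 638, 700.1 and 803 in KO draining, 1006, 848, 1002 and 1091 in Het non-draining and 640.3, 684, 956 and 846 in KO non-draining arrays. The Het non-draining arrays were the higher group, and the highest KO array lay inside their range. The difference over both nodes was -0.24 ± 0.12 on the log2 scale (exact permutation p within nodes 0.0853). Calcoco1 read 269, 284, 387 and 374 in Het draining and 371, 375, 398 and 372 in Het non-draining arrays. Draining arrays 1 and 2 were the low ones, and the node difference was -0.22 ± 0.13 in all, -0.43 for numbers 1 and 2, and -0.02 for numbers 3 and 4 (exact permutation p of the whole 0.257). Nbr1 ranged from 107 to 196 and Tax1bp1 from 443 to 660 over the 16 arrays.

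**Figure D3:**
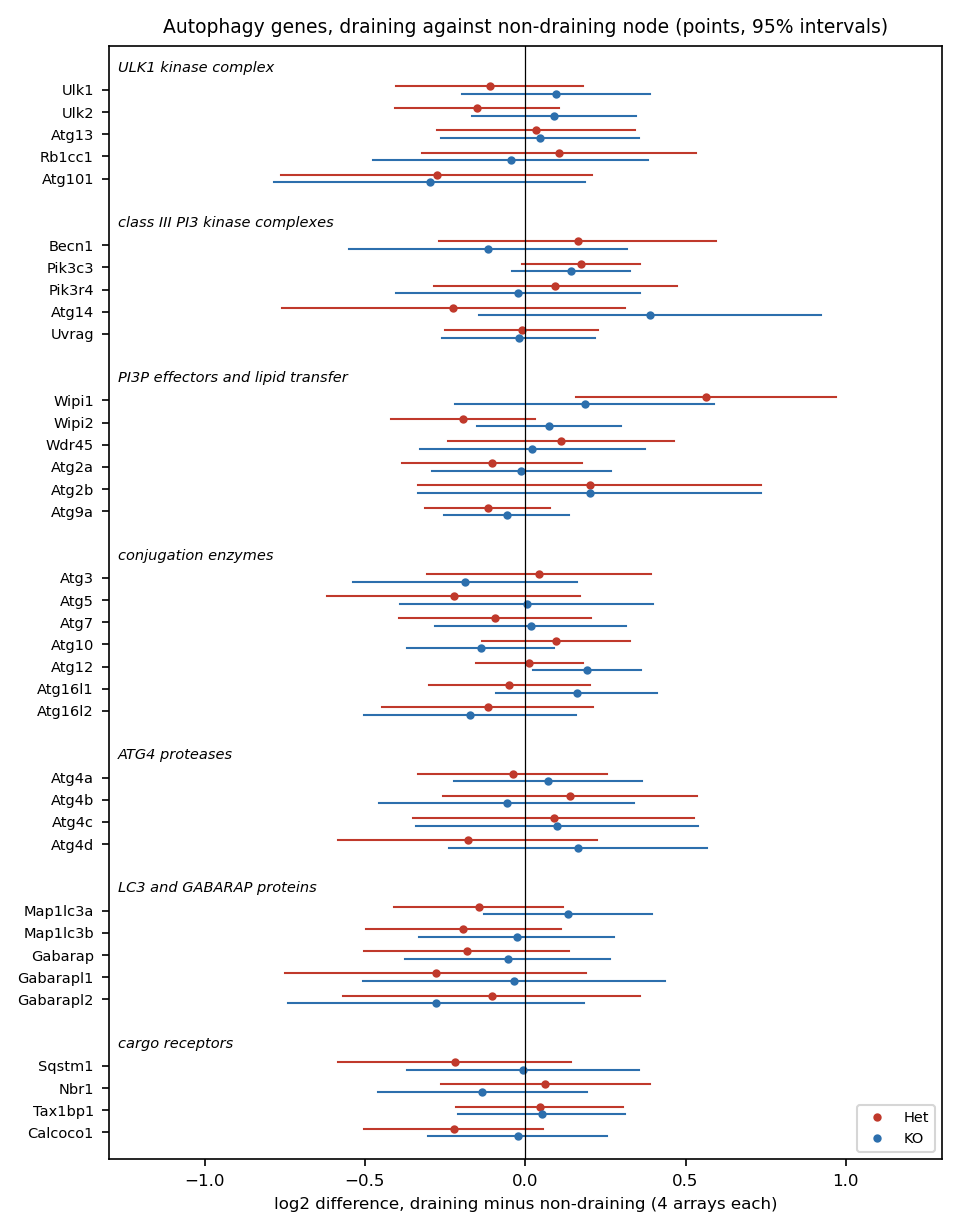
Log2 difference of draining minus non-draining cDC1 for each of the 36 measured autophagy genes in Het (red) and KO (blue) cells, with 95% confidence intervals from limma (4 arrays per group), grouped by role. The interval of Wipi1 in Het lies above 0, and the 5 LC3 and GABARAP genes lie below 0 in Het with intervals that include it.

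The remaining members had no difference past an unadjusted p of 0.05 in any comparison. The protease genes Atg4c and Atg4b ran from 23.9 to 56.4 and from 85.6 to 177, Atg10, the E2-like enzyme for ATG12, from 77.5 to 114 and Atg16l2, a paralogue of Atg16l1, from 52.4 to 93.7.

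Arrays varied together for some genes within groups. KO draining array 2 was the lowest array for 12 of the 36 members, against 17.1% of all genes, and the members' median in it was 0.19 below the gene means on the log2 scale. Het draining array 1 was the lowest for 7 members, against 8.24% of all genes. The SD of the members' median between arrays of a group was 0.10.

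**Figure D4:**
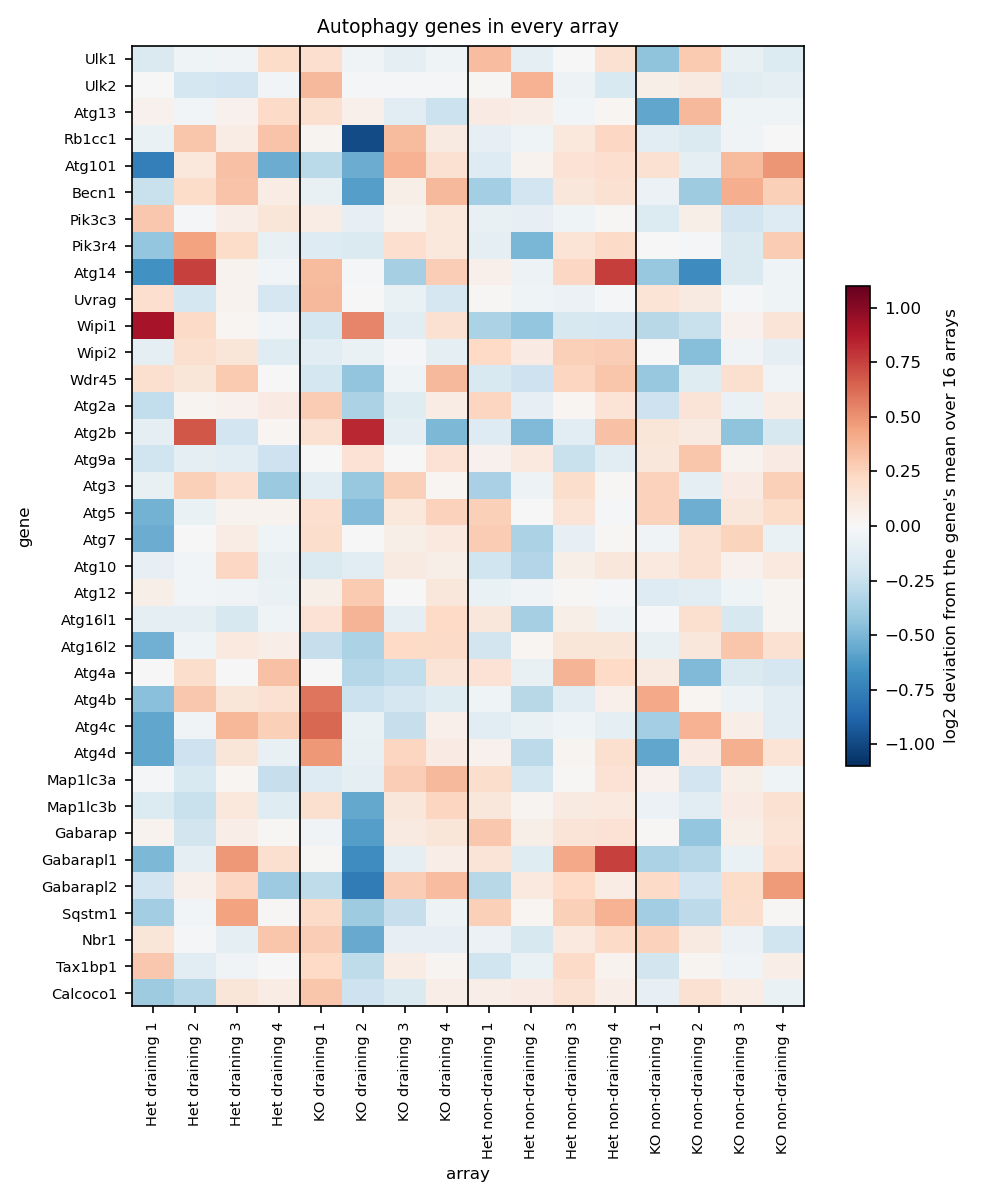
Log2 deviation of each of the 36 genes (rows, ordered by role) from its own mean over 16 arrays (columns, by group). KO draining array 2 carries the lowest value for 12 of the 36 genes.

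Across the 16 arrays, after removing group means, the 630 member pairs had a median Pearson correlation of 0.16, and 404 were positive. The median between members and all other genes was -0.03. With labels permuted within groups, 7 pairs passed Benjamini-Hochberg adjustment over the 630, all positive, and 6 of them also by Spearman's rho. Pairs of other genes were not put through this test, so the share of all gene pairs that would pass is not known. The 7 pairs are therefore not shown to be particular to autophagy genes. The arrays of a pair share the same RNA, so a common shift of an array moves both genes. The permutation treats the 4 arrays of a group as exchangeable and does not hold the array numbers fixed. Therefore r is also given within numbers 1 and 2 and within numbers 3 and 4. Each group then holds 2 arrays centred on their own mean, so such an r rests on only 1 difference between arrays per group. The pairs were picked for their correlation in these same arrays, so a high r by array numbers is no separate check. Map1lc3b and Gabarap had r = 0.88 (permutation p = 0.00012, adjusted 0.0227) and rho = 0.82 (permutation p = 0.00016, adjusted 0.0284), with r = 0.74 after the 2 farthest arrays were left out, and 0.82 and 0.81 by array numbers. Sqstm1 and the protease gene Atg4d had r = 0.87 (permutation p = 0.00018, adjusted 0.0227) and rho = 0.86 (permutation p = 0.00018, adjusted 0.0284), with r = 0.86 without the 2 farthest, and 0.82 and 0.62 by array numbers. Atg3 and Gabarapl2 had r = 0.88 (permutation p = 0.00013, adjusted 0.0227) and rho = 0.87 (permutation p = 0.00027, adjusted 0.0304), with r = 0.84 without the 2 farthest. For array numbers 1 and 2 that r was 0.97, and for 3 and 4 it was 0.89. Atg4c and Calcoco1 had the highest value, r = 0.91 (permutation p = 0.00027, adjusted 0.0284) and rho = 0.92 (permutation p = 1e-05, the smallest these permutations can give, adjusted 0.0063), with r = 0.85 without the 2 farthest, and 0.88 and 0.98 by array numbers. Wipi1 and Atg12 had r = 0.86 (permutation p = 0.00018, adjusted 0.0227) and rho = 0.90 (permutation p = 0.00012, adjusted 0.0284), with r = 0.83 without the 2 farthest, and 0.92 and 0.97 by array numbers. The other pairs were Atg101 with Gabarapl2 (r = 0.87, by array numbers 0.70 and 0.89) and Atg101 with Becn1 (r = 0.80, by array numbers 0.85 and 0.32). Both join genes that differed between the array numbers, and the values of Gabarapl2 come from the brighter probe set described above. Only the pair with Becn1 missed the threshold by rho, with an adjusted permutation p of 0.0518.

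**Figure D5:**
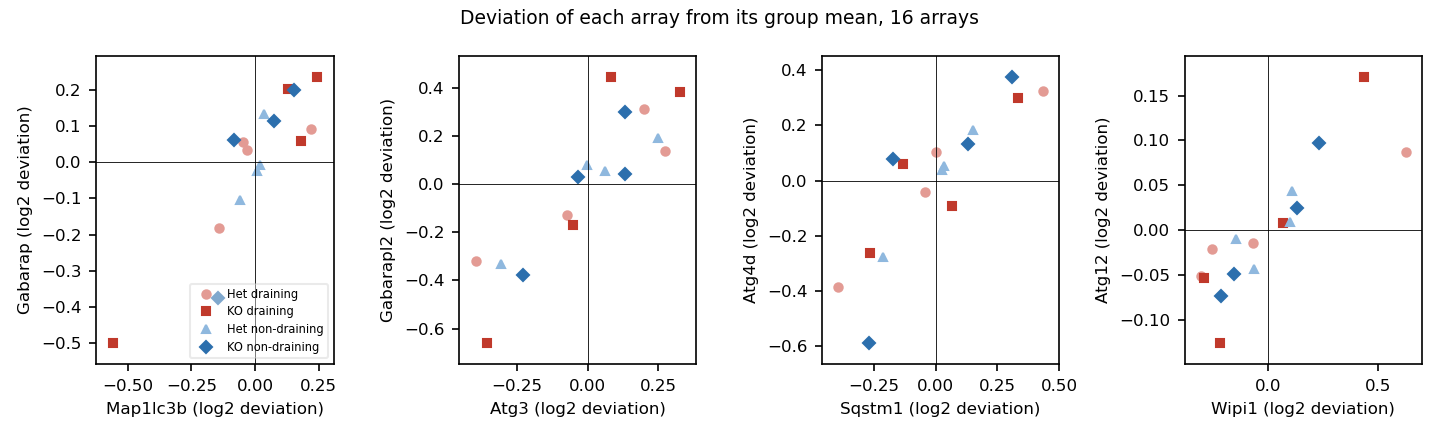
Log2 deviation of each of the 16 arrays from its group mean for Map1lc3b against Gabarap, Atg3 against Gabarapl2, Sqstm1 against Atg4d, and Wipi1 against Atg12, with group shown by symbol. The points follow rising lines, and in the first panel KO draining array 2 is the lowest point on both axes.

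Averaged over the 4 groups, arrays numbered 3 and 4 differed from those numbered 1 and 2. The labels do not say what the numbers mean. For 25 of the 36 members the former were higher on average, with a median log2 difference of 0.10, where 42.2% of all genes were higher and the median was -0.03. Gabarapl1 (0.48), Becn1 (0.44), Atg101 (0.38) and Gabarapl2 (0.35) were the largest, and Atg2b was lower by -0.30. This split was seen in the data and no test was made of it. KO draining array 2 and Het draining array 1, where the members' medians were 0.19 and 0.13 below the gene means, are both on the lower side. In Het non-draining arrays 1 to 4 these medians were 0.02, -0.07, 0.10 and 0.13, and in KO non-draining arrays -0.05, -0.00, 0.01 and 0.02. How far the split rests on single arrays was not tested.

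Genes that regulate or complete autophagy were also counted. None of the 11 other initiation and nucleation genes, 14 fusion genes, 25 genes of the mTORC1, TSC and AMPK pathways, 7 TFEB family and FoxO genes or 18 other selective receptors passed the test in any comparison. Of the TFEB family and FoxO genes, a list of activators of autophagy genes that also holds the repressor gene Zkscan3, 4 had a higher and 3 a lower mean in KO at the draining node, and 1 a higher and 6 a lower mean at the non-draining node. In KO cells all 7 were higher in the draining node, by a median log2 difference of 0.07. Of these 1 passed an unadjusted p of 0.05 (Foxo1, 0.27 ± 0.12), a side that held 1.14% of all genes. Stx17, a fusion SNARE, was higher in KO at the draining node by 0.26 ± 0.10, Tmem41b, a lipid scramblase of the endoplasmic reticulum, was at -0.39 ± 0.13 in KO at the non-draining node, and both had a limma adjusted p of 1.00.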

How the data were processed

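The 16 arrays of sorted cDC1 form 4 groups of 4. The deposited values are intensity on a linear scale, which the authors made with RMA, as the submitters' processing notes name it without software or version. RMA is known to compress differences of weak signals. Of 35556 probe sets, 21789 had 1 gene symbol, 1621 several and 12146 none in the platform annotation, and 99.6% of gene IDs matched RefSeq; the brightest of each gene gave 19938 genes. Differences were computed as log2(intensity + 1) of the authors' values with limma 3.58.1 in R 4.3.3 (1 fit of 16 arrays, Benjamini-Hochberg adjustment), with exact permutation tests of single genes in Python 3.11.15. Array values are given for up to 4 members of smallest p per comparison and for members whose groups do not overlap, and every member is given by its level. Alternatives tried were other offsets, left-out arrays, array sets and a replicate block. The test was checked on simulated data. Array numbers were checked as pairs. In Het the draining and non-draining arrays of 1 number had correlations of 0.20 to 0.31. Arrays of 1 number from different genotypes reached 0.42, and the labels do not say what the numbers mean. The correlations therefore do not show that a number marks a mouse. The main fit and the exact tests treat the arrays as unpaired. The members and lists were chosen with earlier results of these data known. The number of arrays limits precision.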

Additional observations from a re-analysis of the deposited data

Results flagged for a closer look

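In 6 of 144 groups of 4 arrays (36 genes in 4 groups, 4.17%) the lowest or highest array stood far from the other 3. Chance gives about 1 in 20. The KO draining array 1 was the highest of its group for Ulk2, at 196, and for Atg4b, at 177. KO draining array 2 was the lowest for Map1lc3b, at 644. Het draining array 1 was the lowest for Atg2a, at 144. KO non-draining array 2 was the lowest for Atg5, at 115, and Het non-draining array 3 the highest for Calcoco1, at 398. No interaction term passed the test for a member.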

How the results depend on the processing

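Across 29 alternatives, each run where it applied, the 28 differences of named members gave 786 values, all of them in the same direction and none past the adjusted threshold, where the smallest adjusted p was 0.319. These members were picked for small p-values and the alternatives reuse the same arrays, so a shared direction was likely from the start. The count of genes called was 0 in all 7 comparisons and in every alternative but these: within arrays 3 and 4 it was 4 for KO against Het at the draining node, 2 at the non-draining node, 1 between nodes in KO and 5 for the genotype mean, and with the replicate block it was 1 for the genotype mean. Leaving out each array in turn gave 0 genes called throughout, and the members' median log2 difference ran from -0.07 to 0.07 for KO against Het at the draining node, from -0.07 to -0.01 at the non-draining node, from -0.08 to -0.02 between nodes in Het, from -0.04 to 0.09 between nodes in KO, from 0.03 to 0.13 for the interaction, from -0.02 to 0.05 for the genotype mean and from -0.05 to 0.01 for the node mean. Of 24 pairs of arrays of 1 number, 18 had a correlation over 0.1, and all 24 ranged from -0.06 to 0.48. Whether samples of 1 number share a mouse is not stated. In Het alone with the replicate block, 0 genes were called and 1188 had an unadjusted p below 0.05, against 655 without it. The block changed no call of a member. Dim probe sets such as Atg4c, at 23.9 to 56.4, limit what these data resolve.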
